A study of Mus musculus with 8 samples.

Results

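The genes described here are 9 markers of natural killer (NK) cells and cytotoxic lymphocytes, namely Klrb1c, Ncr1, Eomes, Prf1, Gzma, Gzmb, Klre1, Nkg7 and Xcl1. They were chosen by name from a table of 24625 rows, and all 9 had a row through a RefSeq transcript accession, 1 row each. The table came from 8 arrays of lung neutrophils, 4 from wild type (WT) mice that received Streptococcus pneumoniae (SP) and 4 from WT mice that received the same volume of phosphate-buffered saline (PBS). Each preparation was collected 24 h after instillation through the trachea into the left lung (2.3 µl for each g of mouse). The mice were 6 to 12 weeks old per the labels and, per the study's methods, came from colonies of C57BL/6 J. Both groups were taken from digested lungs with magnetic beads against Ly6G, a neutrophil surface protein, so the values describe cells kept by such a column and not sorted NK cells. The study's figure legends describe each sample as coming from a mouse, which the labels do not state, and p-values measure the spread between these samples.

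NK cells and cytotoxic T cells kill a bound target by releasing granules that hold perforin, which opens the target membrane, and granzymes, serine proteases that enter and start cell death. NK cells recognise targets through germline-encoded activating and inhibitory receptors, many of them lectin-like proteins of the NK gene complex, and they depend on the transcription factors Eomes and T-bet. They are a normal lymphocyte population of the mouse lung and a known source of interferon gamma in infection. Since the samples were bulk RNA, fewer cells of a type and less RNA per cell cannot be told apart.

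The promoters of 4 genes are shown. Gzmb and Xcl1 are the 2 genes that passed the test between groups, and Gzma and Prf1 encode granule partners of granzyme B that did not. Xcl1 passed in only 8 of 15 other analyses, as described below. Each is the run of 250 bases before the RefSeq start of the gene in GRCm38.p6, written 5′ to 3′ on the strand of the gene. Gzmb lies at chr14:56262335-56262584 (minus strand), Xcl1 at chr1:164935523-164935772 (minus), Gzma at chr13:113100982-113101231 (minus) and Prf1 at chr10:61297586-61297835 (plus). Capitals mark matches, on either strand, to the letters TGANTCA (AP-1), TGTGGT (Runx), GGTGTGA (T-box), TTCNNNGAA (GAS) and to ISRE, searched as GAAA, any 2 bases and GAAA.
Gzmb: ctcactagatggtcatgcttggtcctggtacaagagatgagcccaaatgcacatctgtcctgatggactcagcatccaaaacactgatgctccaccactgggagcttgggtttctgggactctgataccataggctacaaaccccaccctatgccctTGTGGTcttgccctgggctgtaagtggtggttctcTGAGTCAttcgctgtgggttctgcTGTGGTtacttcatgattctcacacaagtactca
Xcl1: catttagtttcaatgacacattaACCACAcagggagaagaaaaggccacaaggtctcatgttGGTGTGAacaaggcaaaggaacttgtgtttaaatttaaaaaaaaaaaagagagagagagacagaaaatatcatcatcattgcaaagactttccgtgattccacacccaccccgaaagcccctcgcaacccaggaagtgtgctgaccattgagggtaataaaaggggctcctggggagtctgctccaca
Gzma: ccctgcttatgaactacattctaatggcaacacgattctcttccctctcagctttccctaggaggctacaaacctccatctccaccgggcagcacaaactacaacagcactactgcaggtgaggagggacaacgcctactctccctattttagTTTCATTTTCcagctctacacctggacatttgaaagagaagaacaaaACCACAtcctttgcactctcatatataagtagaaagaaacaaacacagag
Prf1: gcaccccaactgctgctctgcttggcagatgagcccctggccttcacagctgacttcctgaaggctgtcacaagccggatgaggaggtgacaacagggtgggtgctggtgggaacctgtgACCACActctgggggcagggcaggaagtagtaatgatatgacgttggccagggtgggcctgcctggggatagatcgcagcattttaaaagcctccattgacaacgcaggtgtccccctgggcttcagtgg
The Runx letters occurred before 8 of the 9 genes, Eomes being the exception, and before 14.0% of all 32851 windows of this length in the table. For Klre1 the match was in 1 of its 2 windows. Of the 9 genes, only Gzmb had the AP-1 letters, 58 to 52 bases before its start, and before 6.75% of all windows. The T-box letters occurred before Xcl1 and Nkg7 (3.33% of all windows), the GAS letters before Nkg7 (7.02%), and the ISRE letters before Gzma and Eomes (2.98%). A match of letters is a description of sequence and not a bound site.

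Signals are given on the log2 scale after robust multi-array averaging by the authors. Background was read on each array from 1282 rows named as olfactory or vomeronasal receptors, and its level was the 95th percentile of those rows, from 5.38 to 5.52 on the PBS arrays and from 5.67 to 6.10 on the SP arrays. SP replicate 3 had the highest background. The receptor rows as a class were higher in SP by a median of 0.20 log2 units, and the median difference over all rows was 0.10. No batch or scan label was available. Neutrophil markers were bright on every array, with list means of 12.25 to 12.50 in PBS and 11.69 to 12.84 in SP over 11 of 12 genes, Ly6g having no matched row.

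Gzmb was the marker that rose at least 2-fold in lung neutrophil preparations during S. pneumoniae pneumonia. Xcl1 passed the test with a signal under background on all PBS arrays, and the other 7 markers did not pass the test. By limma, 2 of the 9 genes differed (adjusted p not above 0.05), both higher in SP, whereas 44.1% of all rows passed (21.5% higher, 22.6% lower). At 2-fold (1 log2 unit) 1 of 9 was higher and none was lower, against 6.37% and 11.3% of all rows. The median difference of the 9 genes was 0.28 log2 units. The mean was higher in SP for all 9 genes on the deposited scale, but after another quantile normalization Klrb1c (-0.040), Eomes (-0.053) and Klre1 (-0.013) turned negative. Centring arrays on their medians raised every difference by the same amount, moved the median over all rows to 0.38 and that of the receptor rows to 0.48, and left 7 of the 9 genes called. It also called 96.0% of the receptor rows higher, against 20.0% on the deposited scale.

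**Figure D1:**
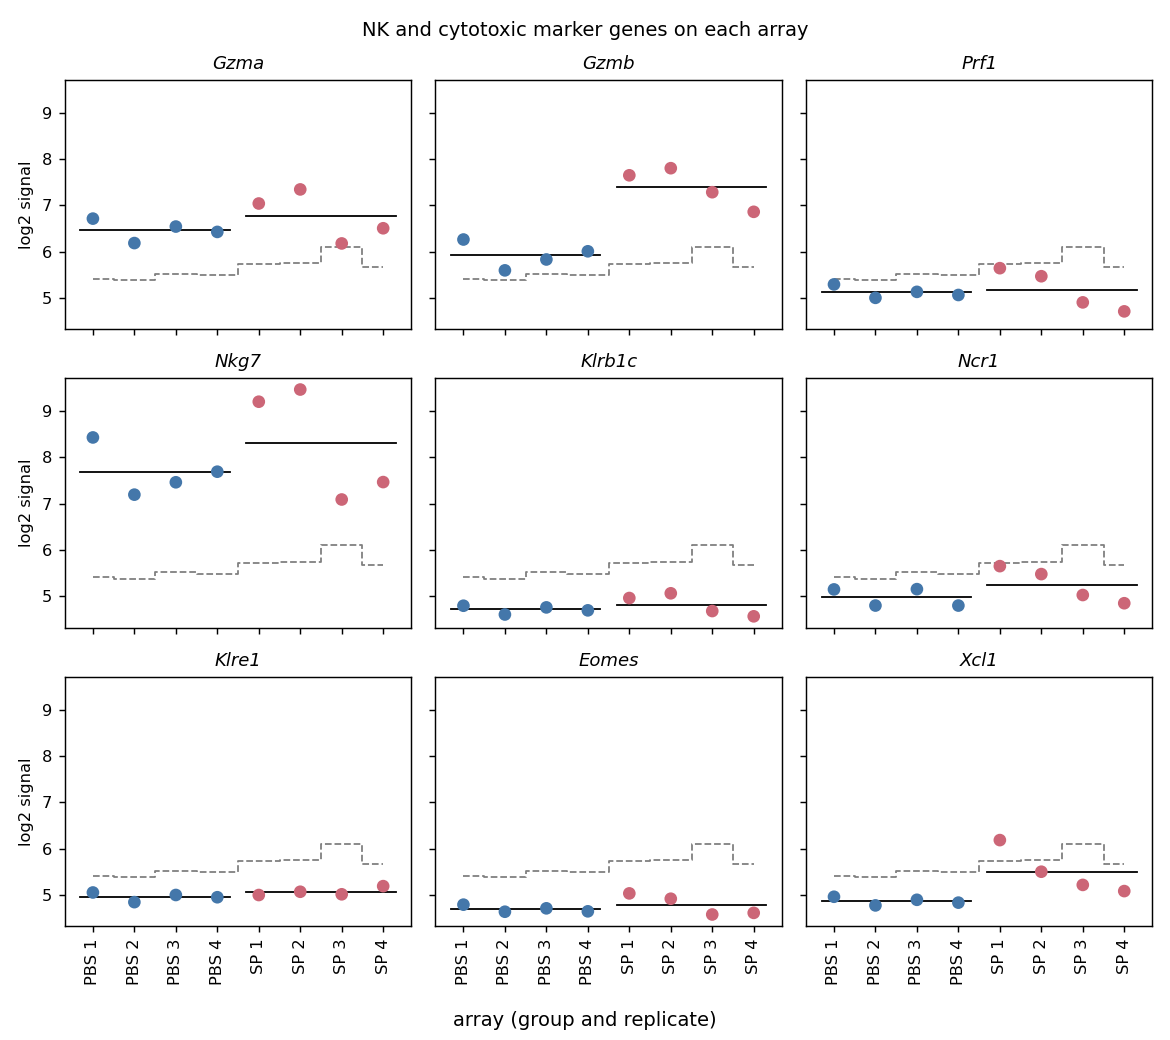
The log2 signal of each of the 9 marker genes (vertical axis) on each array (horizontal axis), with blue points for PBS, red points for SP, a black line for each group mean and a dashed line for the background of that array. The 4 Gzmb values of SP lie above the 4 of PBS, whereas Klrb1c, Ncr1, Eomes, Prf1 and Klre1 stay under the dashed line on all 8 arrays.

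The granule proteins were considered first. Gzmb encodes granzyme B, a protease that cleaves after aspartate and activates caspases. Its signal (NM_013542) was 6.26, 5.59, 5.83 and 6.01 in PBS replicates 1 to 4 and 7.65, 7.80, 7.28 and 6.86 in SP replicates 1 to 4. All SP values lay above all PBS values, and all 8 values lay above background. The mean rose from 5.92 ± 0.28 (SD, n = 4) to 7.40 ± 0.42 (SD, n = 4), a difference of 1.47 log2 units with a standard error of 0.22 and a 95% interval of 0.97 to 1.98. This is 2.78-fold (adjusted p = 0.00107 by limma). Gzmb was called in each of 16 other analyses, with differences of 1.34 to 1.76. The interval reaches below 1 log2 unit, and a test against 2-fold (limma treat) did not call it.

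Gzma encodes granzyme A, a tryptase that induces caspase-independent death. Its signal (NM_010370) was 6.71, 6.18, 6.54 and 6.42 in PBS and 7.04, 7.34, 6.18 and 6.50 in SP. SP replicates 1 and 2 were above every PBS value, whereas SP replicate 3 fell below them all and SP replicate 4 among them. The difference of 0.30 log2 units (95% interval -0.27 to 0.87, adjusted p = 0.328) did not pass. It passed with array weights (0.50, 0.0359), with centred arrays (0.58, 0.0489) and after another quantile normalization (0.68, 0.0328). Over all 16 other analyses the adjusted p ranged from 0.0328 to 0.689.

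Prf1 encodes perforin, without which granzymes do not reach the target cytosol. Its signal (NM_011073) was 5.29, 5.0, 5.13 and 5.06 in PBS and 5.64, 5.47, 4.90 and 4.71 in SP, under background on all 8 arrays. SP replicates 1 and 2 were the highest and SP replicates 3 and 4 the lowest of the 8. The difference was 0.06 log2 units (95% interval -0.41 to 0.53, adjusted p = 0.816), and it turned to -0.095 when SP replicate 1 and to -0.037 when SP replicate 2 was left out. By the receptor rows perforin thus had no array above background, whereas Gzmb had all 8.

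Nkg7 encodes a granule membrane protein of NK and cytotoxic T cells that takes part in degranulation. Its signal (NM_024253) was 8.43, 7.20, 7.46 and 7.69 in PBS and 9.20, 9.47, 7.09 and 7.47 in SP, all above background. The SP arrays fell into a pair above every PBS value and a pair inside or just below the PBS range. The SD over 4 arrays was 0.53 for PBS but 1.2 for SP. The difference of 0.61 log2 units (95% interval -0.67 to 1.90, adjusted p = 0.373) did not pass, and its interval holds changes of more than 2-fold upward. Leaving out SP replicate 3 made it 1.02 and leaving out SP replicate 2 made it 0.23, neither of which passed, and with array weights it was called at 1.13 (0.0444).

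Surface receptors of NK cells followed. Klrb1c encodes NK1.1, the antigen by which NK cells of this strain are usually stained. Its signal (NM_001159904) was 4.80, 4.61, 4.76 and 4.70 in PBS and 4.96, 5.07, 4.68 and 4.57 in SP, under background throughout. Klrb1c belongs to a family of similar genes, and whether its probes also bind their transcripts was not tested. Ncr1 encodes NKp46, an activating receptor that defines NK cells and group 1 innate lymphoid cells. Its signal (NM_010746) was 5.15, 4.80, 5.16 and 4.80 in PBS and 5.65, 5.48, 5.03 and 4.85 in SP, also under background. Klre1 encodes a lectin-like receptor of the NK gene complex. Its signal (NM_153590) was 5.05, 4.84, 5.0 and 4.95 in PBS and 5.0, 5.07, 5.01 and 5.19 in SP, a range of the same order in both groups. The groups overlapped for all 3 receptors, and the differences were 0.10 (95% interval -0.17 to 0.38), 0.28 (-0.16 to 0.71) and 0.11 (-0.07 to 0.29) log2 units, with adjusted p of 0.476, 0.247 and 0.280 by limma.

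Eomes encodes the T-box factor that sets NK cells apart from other innate lymphoid cells. Its signal (NM_001164789) was 4.79, 4.63, 4.71 and 4.64 in PBS and 5.03, 4.92, 4.57 and 4.61 in SP, under background on all arrays. The groups overlapped, with a difference of 0.09 log2 units (95% interval -0.18 to 0.36, adjusted p = 0.527). The markers that define the NK lineage, Klrb1c, Ncr1 and Eomes, thus had no array above the background set by the receptor rows. Against a lower background, the highest Y-linked row of each array, Ncr1 was above on all 8 arrays, Klrb1c on 4 PBS and 2 SP arrays, and Eomes on 3 PBS and 2 SP arrays. This background assumes that the mice were female. The study's methods name females as bought for the colonies and describe the mice studied as matched for sex. The 3 Y-linked genes with a row had no array above the receptor background. Differences of rows at background are compressed, so their narrow intervals describe the array signal and do not bound a change of the transcript.

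Xcl1 encodes lymphotactin, a chemokine that NK cells and CD8+ T cells release to attract cross-presenting dendritic cells. Its signal (NM_008510) was 4.96, 4.77, 4.89 and 4.83 in PBS and 6.18, 5.50, 5.21 and 5.08 in SP. Every SP value was above every PBS value, but only SP replicate 1 was above the background of its array. The groups did not overlap in 2 of the 9 genes, Gzmb and Xcl1, and in 49.0% of all rows (27.2% with SP higher, 21.8% with SP lower). The signal of Xcl1 differed by 0.63 log2 units (95% interval 0.13 to 1.13, adjusted p = 0.0461 by limma). For a gene under background on every PBS array the fold is given above PBS background. It sets the SP mean against, on each PBS array, the higher of background and signal. Background was higher on the SP arrays, so this fold can hold part of that shift and is not a strict lower bound. Xcl1 was 1.03-fold above PBS background, but on average -0.32 log2 units from the background of the SP arrays. Xcl1 did not pass by the methods' t-test (0.0848) or with quantiles set anew (0.123), nor when any 1 PBS sample (0.0787 to 0.0960) or SP replicate 2 (0.0838) was left out. Without SP replicate 1, the highest value, the difference was 0.40 log2 units and passed (0.0344).

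**Figure D2:**
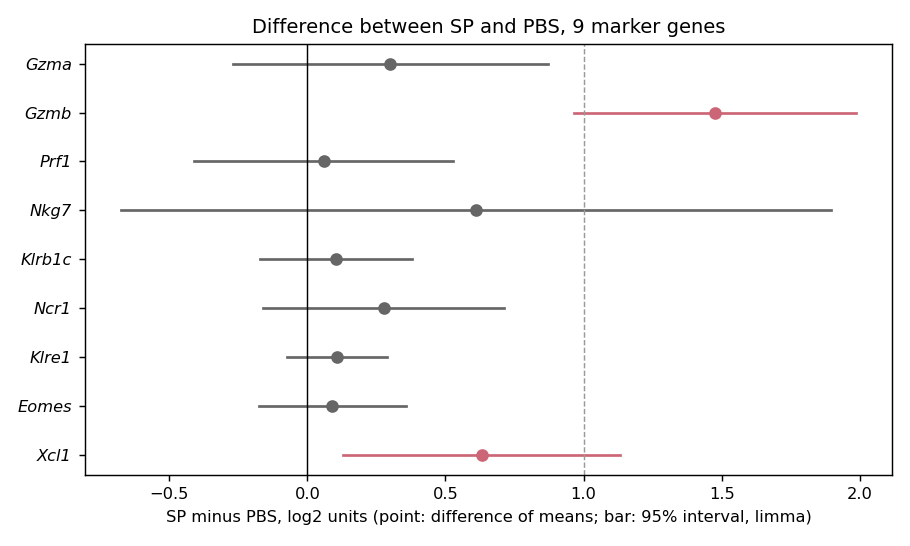
The difference between SP and PBS in log2 units (horizontal axis) for each of the 9 marker genes (vertical axis), with points for the difference of means, bars for the 95% interval by limma, red for an adjusted p of at most 0.05 and a dashed line at 2-fold. Gzmb at 1.47 is the only point beyond the dashed line, and the interval of Nkg7, -0.67 to 1.90, is the widest.

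Gzmb was set against the other markers within each array, which removes any shift common to both genes. Gzmb has the largest difference of the markers in these same data. The p-values of these pairs thus belong to a gene picked with its outcome known. Gzma and Nkg7 are the 2 partners above background on all arrays. Gzmb minus Gzma averaged -0.54 ± 0.13 on the PBS arrays and 0.63 ± 0.33 on the SP arrays (SD, n = 4), so Gzmb gained 1.18 log2 units on Gzma (2.26-fold, 95% interval 0.74 to 1.61). The groups did not overlap, and the two-sided exact permutation test over 70 arrangements gave its smallest possible value of 0.0286 (0.0327 after adjustment over all 8 pairs). The gain on Nkg7 was 0.86 (95% interval -0.25 to 1.98) and did not pass (exact permutation p = 0.0857, adjusted 0.0857). Gzmb minus Nkg7 was -1.56, -1.67, 0.19 and -0.61 on the SP arrays, so both genes were high on SP replicates 1 and 2 and Gzmb stayed high on SP replicates 3 and 4. Without SP replicate 2 the gain on Nkg7 was 1.12 and passed (exact permutation test, adjusted p = 0.0286). Leaving out any other single sample, it did not pass (adjusted p = 0.0857 to 0.229 by the same test). The gain was 0.50 without SP replicate 3. The other 6 genes were under background on at least 7 of 8 arrays, so that Gzmb minus such a gene mostly carries the signal of Gzmb and does not compare the 2 transcripts. Those gains ran from 0.84 on Xcl1 to 1.42 on Prf1, each without overlap of the groups, and are given as a description. These 6 pairs were nevertheless counted in the adjustment over 8 pairs, each at the smallest possible value. The adjusted p-value of the pair with Gzma is therefore lenient. Its pass rests on these 6 pairs, so it is not taken as a call. An adjustment over the pairs with Gzma and Nkg7 alone was not made.

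**Figure D3:**
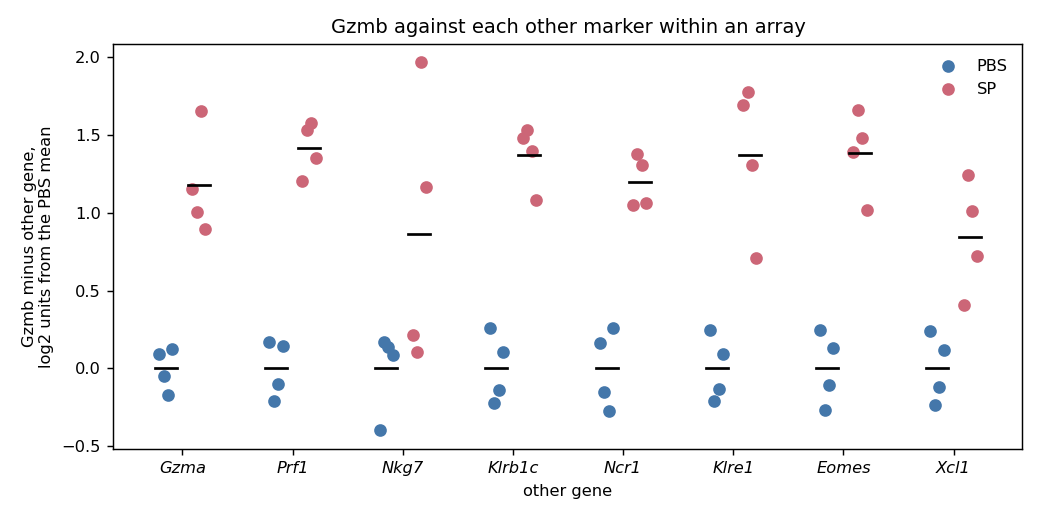
Gzmb minus each other marker gene within an array (vertical axis, log2 units from the PBS mean of that pair), by the other gene (horizontal axis), with blue points for the 4 PBS arrays, red points for the 4 SP arrays and black lines for group means. The groups separate for Gzma and overlap for Nkg7, and the other 6 genes are under background on at least 7 of 8 arrays.

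The members were not evenly distributed among the SP arrays. For 8 of the 9 genes the 2 highest of the 8 values were those of SP replicates 1 and 2, Klre1 being the exception, and the same held for 10.8% of all rows. For 6 of the 9 genes SP replicates 3 and 4 did not exceed the highest PBS value. The mean of the 9 genes was 6.26 and 6.23 in SP replicates 1 and 2, 5.55 and 5.54 in SP replicates 3 and 4, and 5.29 to 5.72 in PBS. T cell markers moved with these values. For 12 of 18 T cell markers the 2 highest values were those of SP replicates 1 and 2, and the mean of the list was 6.49, 6.64, 5.71 and 5.70 in SP replicates 1 to 4 and 5.54 to 5.99 in PBS. The mean of 11 neutrophil markers was 11.87, 11.69, 12.84 and 12.05 in SP replicates 1 to 4 and 12.25 to 12.50 in PBS. It was thus lowest in SP replicates 1 and 2, and SP replicate 4 also lay below the PBS range. Single genes of the list, named after their values were seen, differed. In SP replicates 1 to 4 Ngp was 11.21, 10.62, 13.34 and 12.25, and Csf3r was 12.90, 12.93, 12.67 and 12.73. The list mean thus does not hold for each gene. The study's methods give neutrophil purity, judged on stained cytospins, for samples from mice with pneumonia and no value for PBS samples. They describe the few contaminating cells as mostly resembling alveolar macrophages and, rarely, eosinophils. Whether cell make-up differed between the SP arrays was not tested. The part of T cells in the values of the cytotoxic genes was not tested either.

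The genes most like Nkg7 across the 8 arrays were T cell and granule genes. By the root mean square distance between row-centred values, over 19835 other genes with a symbol, the nearest were Cd3g (0.24 log2 units) and Cd3e (0.28), subunits of the T cell receptor complex, with Ctsw (0.27), a cysteine protease of cytotoxic lymphocytes, between them. Cd3g was 6.59, 5.47, 5.86 and 5.74 in PBS and 6.95, 7.22, 5.44 and 5.71 in SP, and Ctsw 5.68, 5.03, 5.25 and 5.35 in PBS and 6.40, 6.99, 5.09 and 5.28 in SP. PBS replicate 1 was the highest PBS array and SP replicates 1 and 2 were the highest of all for Nkg7, Cd3g and Ctsw alike. The genes nearest to Gzmb were others, Chaf1b (0.14), a chromatin assembly subunit, Sag (0.14), a visual arrestin, and Vps54 (0.19), a subunit of a vesicle tethering complex. These rose by 2.49-, 2.90- and 2.73-fold (largest adjusted p = 0.00129), and SP replicates 1 and 2 were the highest arrays in each. A short distance describes likeness over 8 arrays that share 2 groups, and nothing about shared function.

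**Figure D4:**
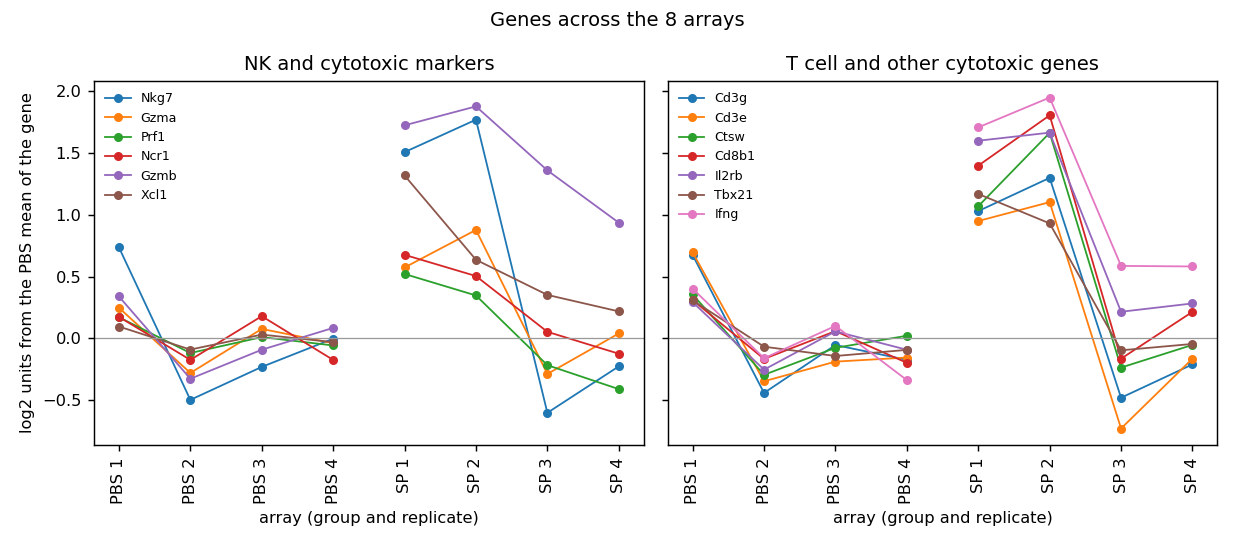
Log2 signal relative to the PBS mean of each gene (vertical axis) on each array (horizontal axis), for 6 of the marker genes (left) and for T cell and other cytotoxic genes (right), with 1 colour per gene and lines that only join the points of a gene. Nkg7, Cd3g, Cd3e, Ctsw and Cd8b1 are high on SP replicates 1 and 2 and near the PBS level on SP replicates 3 and 4, while Gzmb is above the PBS level on all 4.

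Among 18 T cell markers, 4 passed the test, all higher, and 2 were at least 2-fold higher. Cd5, a T cell surface protein, rose 2.37-fold (adjusted p = 0.0198 by limma). Cd5 lost its call without PBS replicate 4 (0.0515) and without SP replicate 1 (0.0565). The count at 2-fold was 1 if PBS replicate 4 or SP replicate 1 or 2 was left out, 4 if SP replicate 3 was, 6 under array weights and 5 when arrays were centred. Of genes chosen after their values were seen, Cd8a was 6.60, 6.65, 5.24 and 5.47 and Cd8b1 7.27, 7.68, 5.71 and 6.09 in SP, against 5.12 to 5.62 and 5.68 to 6.18 in PBS. These encode the CD8 co-receptor of cytotoxic T cells. Neither passed (adjusted p = 0.120 and 0.135), and without SP replicate 3 both did, at 0.93 (0.0367) and 1.14 (0.0359) log2 units. Cd8a was called in only 3 of 15 other analyses and Cd8b1 in 3 of 16. The kinase Lck, also chosen after its values were seen, was 6.65, 6.89, 5.64 and 5.43 in SP. It did not pass (0.0923), and passed without SP replicate 4 (1.02, 0.0345). Lck was called in 4 of 15 other analyses. Lat, the T cell adaptor, lay at 7.86, 8.35, 6.39 and 6.71 in SP and did not pass (0.0847), but did without SP replicate 3 (1.27, 0.0245). Lat was called in 5 of 16 other analyses. Of other list members, named after their values were seen, Cd247 (0.62, 0.0185) and Cd3d (0.69, 0.0209) passed. Both were under background on all PBS arrays. Cd3d was highest on SP replicate 3, at 5.71, 5.67, 6.22 and 5.22 in SP. Cd4 (-0.27, adjusted p = 0.274) and Zap70 (-0.21, 0.238) were lower in SP and did not pass.

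Of 17 other NK cell surface receptors with a row, out of 20 listed, 3 had a signal at least 2-fold higher and none lower, and the median difference was 0.11 log2 units. Slamf7 (CRACC), a self-ligand receptor that myeloid cells also carry, averaged 6.69 ± 0.40 on the PBS arrays and 11.40 ± 0.36 on the SP arrays (SD, n = 4), 26.3-fold higher (limma, adjusted p = 5.70e-06). Its values in SP were 11.76, 11.54, 10.92 and 11.39, far above the 6.31 to 7.25 of PBS. Crtam, a receptor of activated NK and CD8+ T cells, was 3.18-fold above PBS background (limma, adjusted p = 3.69e-05 between groups). It went from under background on all PBS arrays to 7.63, 7.0, 6.75 and 7.10 in SP. Klrk1, which encodes the activating receptor NKG2D, was 1.55-fold above PBS background (0.000526 between groups). It lay at 6.39, 6.26, 5.90 and 5.79 in SP, above background in 3 of 4 SP arrays and under it on all PBS arrays. All 3 were higher in every SP array than in any PBS array. Itga2 (CD49b), an integrin that stains NK cells, was above background on all arrays and did not pass (-0.43 log2 units, adjusted p = 0.119), but did without SP replicate 4 (-0.57, 0.0493). Of the list, Klrc2, Cd244a and Ncam1 had no row.

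Of 13 other granule proteins, 3 passed the test and none reached 2-fold. These 3, named after their values were seen, were the granzyme Gzme (0.40, adjusted p = 0.0413, under background on all arrays) and the lysosomal membrane protein Lamp1 (0.65, 0.00914), both higher, and the calcium-binding protein Calr (-0.38, 0.0425). The remaining granzymes (Gzmc, Gzmd, Gzme, Gzmf, Gzmg, Gzmk, Gzmm and Gzmn), also named after their values were seen, were under background on all 8 arrays. Srgn, the proteoglycan core that packs granule proteases in many blood cells, lay at 13.36 ± 0.08 and 13.50 ± 0.10 and did not pass (adjusted p = 0.175), although it did when arrays were centred (0.42, 0.0105). Ctsc, the protease that activates granzymes and also the serine proteases of neutrophils, lay at 12.17 ± 0.11 and 12.09 ± 0.32 (0.682). Ctsw did not pass (0.61, adjusted p = 0.234) and did with array weights (0.95, 0.0254).

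Among serpins that inhibit granzymes or related proteases, of 4 with a row, out of 5 listed, 2 passed, Serpinb6b and Serpinb6a (-0.92, adjusted p = 0.00814, named after its value was seen), both lower, and 1 was at least 2-fold lower. Serpinb6b, described as an inhibitor of granzyme A, averaged 10.23 ± 0.23 on the PBS arrays and 8.69 ± 0.68 on the SP arrays (SD, n = 4), 2.91-fold lower (adjusted p = 0.00458). Its values in SP were 8.75, 8.91, 7.75 and 9.36, all below the PBS values of 9.99 to 10.47. Serpinb9, the mouse inhibitor of granzyme B, was 9.91, 9.75, 9.34 and 9.54 in PBS and 9.46, 9.39, 8.01 and 9.32 in SP and did not pass (-0.59, adjusted p = 0.154). Without SP replicate 4, 2 of the 4 were at least 2-fold lower. Of 10 genes of the granule release machinery, which neutrophils also use, 1 passed higher and 4 lower, and Sytl2, an effector of Rab27a, was the 1 gene at least 2-fold lower (3.75-fold, adjusted p = 0.000113), above background on 1 of 4 SP arrays. Without PBS replicate 2 the count was 2. Lyst and Coro1a were above background on all arrays and did not pass (0.11 and -0.06, adjusted p = 0.606 and 0.832).

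**Figure D5:**
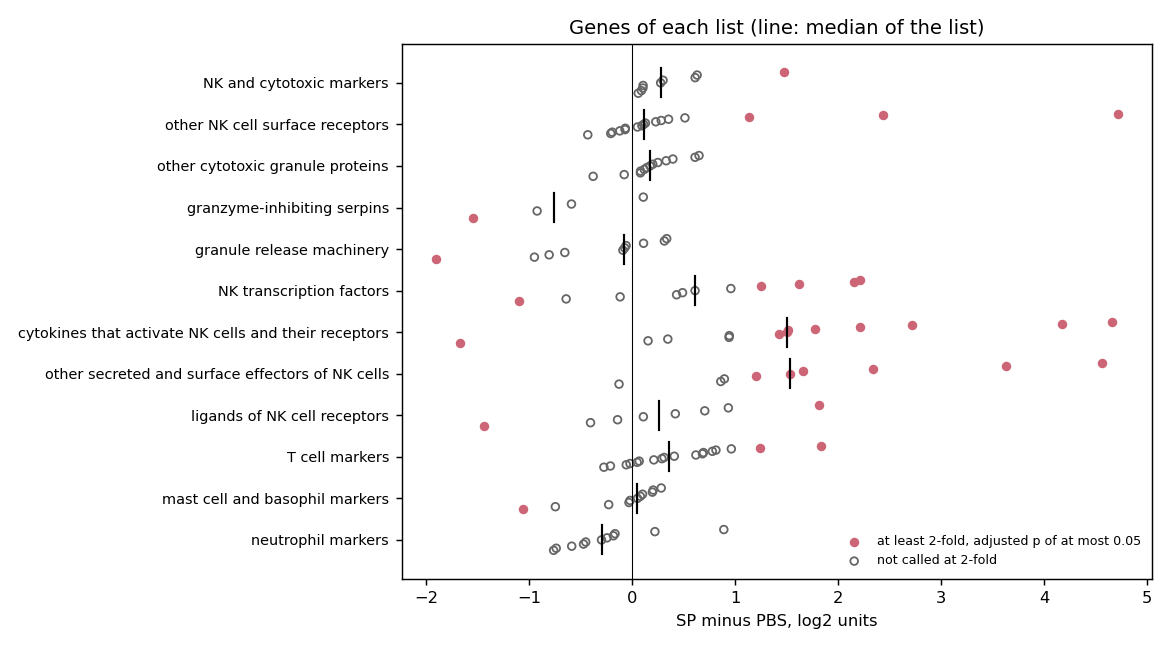
The difference between SP and PBS in log2 units (horizontal axis) of each gene with a row, by list (vertical axis), with filled red points for calls of at least 2-fold, open points for the rest and a black line at the median of the list. The 9 markers hold 1 filled point, and the cytokine and effector lists have medians of 1.5 and 1.53.

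Of 11 genes listed as transcription factors of NK cells that had a row, 6 passed higher and 2 lower, with 4 and 1 at 2-fold. Zeb2 rose 4.62-fold, Prdm1 4.46-fold and Id2 3.07-fold (adjusted p = 1.38e-05, 8.76e-06 and 1.29e-05 by limma), and Irf8 2.37-fold (0.0218). All 4 were above background on every PBS array as well, and which cells carried their rise was not tested. Irf8 did not pass by the methods' t-test (0.0533) or when PBS replicate 3 or 4 or SP replicate 1 or 2 was left out (0.0530 to 0.0592). Nfil3 did not pass (adjusted p = 0.338). Tbx21, which encodes T-bet and was singled out after its values were seen, was 6.45, 6.21, 5.18 and 5.24 in SP and 5.14 to 5.59 in PBS, and it did not pass (0.49, 0.197) except with array weights (0.85, 0.0151) and centred arrays (0.77, 0.0311).

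The cytokines that activate NK cells and their receptors held many calls, with 9 of 13 genes higher and 1 lower, and 8 and 1 at 2-fold. Il12a, a subunit of interleukin 12 above background on 3 of 4 PBS arrays, was 25.2-fold and Il15ra, the chain that presents interleukin 15, 18-fold higher (adjusted p = 1.01e-05 and 4.37e-07). Il18bp, the decoy for interleukin 18, was 6.56-fold higher. Il12rb1, under background on all PBS arrays and on SP replicate 3, was 2.44-fold above PBS background (limma, adjusted p = 0.00588 between groups). Its SP values were 7.58, 7.69, 5.42 and 6.26. Il2rg, the common gamma chain, was 3.43-fold higher. Il18rap did not reach 2-fold (0.94, adjusted p = 0.0335), a call lost without PBS replicate 1 or 2 or SP replicate 1 or 3 (0.050 to 0.0824). Il2rb, the interleukin 15 receptor chain that marks NK cells, was singled out after its values were seen, at 8.02, 8.09, 6.64 and 6.70 in SP and 6.17 to 6.72 in PBS. It did not pass (0.94, adjusted p = 0.0621), but it was called in 7 of 16 other analyses, among them without SP replicate 3 (1.18, 0.0260) and SP replicate 4 (1.16, 0.0327).

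Of 9 genes listed as other effectors of NK cells, 8 passed higher, 6 of them at least 2-fold, and none passed lower. Of all rows, 21.5% passed higher and 6.37% were at least 2-fold higher. Xcr1, named after its values were seen, was the listed gene that did not pass (-0.13, adjusted p = 0.181 by limma). It was under background on all arrays. Ccl4, Ccl5 and Ccl3, chemokines that neutrophils also make, were 23.5-, 12.4- and 5.05-fold higher. Lta (lymphotoxin alpha), under background on all PBS arrays, was 1.99-fold above PBS background. The largest adjusted p between groups among Ccl3, Ccl4, Ccl5 and Lta was 0.00265 by limma. Tnfsf10 (TRAIL), a death ligand, differed by 0.86 log2 units (0.0328), a call lost without PBS replicate 3 or 4 or SP replicate 1, 2 or 4 (0.0557 to 0.0824). Ifng, also named after its values were seen, was 7.39, 7.63, 6.27 and 6.26 in SP and 5.34 to 6.08 in PBS (2.31-fold, adjusted p = 0.0220). Its SP values had the same pair of high arrays as Nkg7 and Il2rb, but unlike theirs every one lay above every PBS value. Ifng did not pass by the methods' t-test (0.0534) or when PBS replicate 2 (0.0525) or 4 (0.0588) or SP replicate 1 (0.0606) was left out.

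Ligands by which other cells engage NK receptors were measured for 8 of 12 listed genes. Cd48, the ligand of 2B4, rose 3.51-fold (adjusted p = 0.00133) and Nectin2, a ligand of DNAM-1, fell 2.71-fold (0.000820). Clec2d, the ligand of an inhibitory Klrb1 receptor, was 1.91-fold higher (0.00141), and Pvr did not pass (0.11, 0.696). Markers of mast cells and basophils, which can carry granzyme B, were also examined. Cpa3, Mcpt8, Fcer1a, Ms4a2, Mcpt4 and Prss34 were under background on all 8 arrays and are named after their values were seen, and 8 of 11 genes of the list had no array above it. Of the brighter genes, Gata2 was lower by -1.06 log2 units (adjusted p = 0.0393), a call lost without PBS replicate 1 or 2 or SP replicate 1, 2 or 3 (0.0552 to 0.0976), Kit was lower by -0.75 (0.00355) and Hdc, which neutrophils also express, did not pass (-0.23, 0.296). Among neutrophil markers Retnlg was lower by -0.47 (0.0418, and 0.0613 to 0.104 without any single sample except SP replicate 3), and Lcn2 did not pass (0.22, 0.0505).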

How the data were processed

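Gene expression was measured in 8 samples of lung neutrophils, 4 given PBS and 4 given SP, each on 1 Affymetrix array, and groups and replicate numbers followed the titles. The deposited values are log2 signals. Per the study's methods, the authors made them by robust multi-array averaging with corrections for background, GC content and probe sequence, then quantile normalization and median polish over custom gene mappings. The genome build behind the rows is not given in the sources used here. Such values are relative, and compressed at the dim end. An array gives no read depth, so the number of arrays limits precision.

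Symbols came from RefSeq (GRCm38.p6), matched on transcript accessions without versions, for 19915 of 24625 rows (80.9%). Where a symbol had several rows the row with the highest mean was used. Rows were compared with limma 3.58.1 in R 4.3.3 (lmFit and eBayes, no covariates, two-sided, Benjamini-Hochberg over all rows), at an adjusted p of 0.05 and, for larger changes, also 2-fold. Gzmb was compared with each other member within arrays by an exact permutation test (two-sided, 70 arrangements). Named genes were the members, of each other list up to 4 with the largest 2-fold calls and the 2 with the highest mean, and the 3 genes nearest to members that ranged over at least 2 log2 units. Genes outside this rule are marked as chosen after their values were seen. The members and lists were chosen with earlier results of these data known. The scripts were tested on simulated data.

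Alternatives were the methods' t-test, a robust prior with trend, a replicate block, array weights, centring on medians, another quantile normalization, omission of dim rows, a single row for each symbol, omission of each sample in turn, limma treat, and Y-linked rows as background. Figures were made with Python 3.11.15. One gene that the rule for named genes picked is not reported here.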

Additional observations from a re-analysis of the deposited data

Results flagged for a closer look

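None of the 9 marker genes had a single sample far from the rest of its group by Dixon's test at its 95% critical value. Of the other named genes, 9 had 1 such sample, in 120 groups tested over 60 genes, and chance flags about 1 in 20 groups. Klrk1 on PBS replicate 2 lay at 4.72, below the 5.0 to 5.05 of the other PBS samples. Crtam on PBS replicate 2 lay at 4.39, below the 4.76 to 4.82 of the other PBS samples. Serpinb9 on SP replicate 3 lay at 8.01, below the 9.32 to 9.46 of the other SP samples. Tbx21 on PBS replicate 1 lay at 5.59, above the 5.14 to 5.21 of the other PBS samples. Id2 on SP replicate 3 lay at 13.20, above the 12.91 to 12.95 of the other SP samples. Il18bp on SP replicate 4 lay at 11.42, below the 11.85 to 11.87 of the other SP samples. Ccl3 on PBS replicate 2 lay at 9.72, below the 11.63 to 11.73 of the other PBS samples. Cd48 on PBS replicate 1 lay at 8.08, above the 7.35 to 7.42 of the other PBS samples. Nectin2 on PBS replicate 2 lay at 8.92, above the 8.51 to 8.55 of the other PBS samples.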

How the results depend on the processing

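Gzmb kept its direction and its call in all 16 analyses that tested it against no change. The number of markers called was 2, and it was 1 under the methods' t-test and with dim rows left out (where 3 of the 9 were tested), 5 with array weights, 7 with arrays centred on their medians, and 1 to 2 without any 1 sample. At 2-fold, 1 marker was called, with 2 under array weights, 0 under limma treat and 1 without any 1 sample. The median difference of the markers was 0.28, with 0.56 for centred arrays, 0.61 with dim rows left out, and 0.11 to 0.39 without any 1 sample. Direction turned after another quantile normalization for Klrb1c (-0.040), Eomes (-0.053), Klre1 (-0.013) and Lyst (-0.12), and with centred arrays for Coro1a (0.22), Ctsc (0.20) and Hdc (0.053). On leaving out single samples, differences ranged from -0.095 to 0.22 for Prf1, from -0.24 to 0.063 for Coro1a, from -0.22 to 0.033 for Ctsc, from -0.021 to 0.23 for Lyst and from -0.083 to 0.31 for Pvr.

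Over all rows, 4341 were called at 2-fold, 1572 by limma treat and 3982 to 4657 without any 1 sample. The share of lower calls was 63.9%, 44.4% with centred arrays and 53.9% after another quantile normalization. By list, limma treat left 0 serpins, ligands, T cell markers and mast cell or basophil markers, 3 transcription factors, 5 cytokine genes and 2 effectors. Array weights gave 2 genes of the release machinery, 6 T cell markers, 0 mast cell or basophil markers and 2 neutrophil markers. Centred arrays gave 5 T cell markers and 0 mast cell or basophil markers, the methods' t-test 0 of the latter, and another quantile normalization 0 of them and 2 release genes. With dim rows left out, 1 NK receptor was called in place of 3. Without any 1 sample the counts were 1 to 2 for serpins and for release genes, 1 to 4 for T cell markers, 0 to 1 for mast cells and basophils and 0 to 2 for neutrophils. The highest Y-linked row as background put 6 in place of 3 markers above it on all arrays, with Ncr1, Klre1 and Xcl1 added. The cause of these changes was not tested.

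Same-numbered samples correlated in their deviations at 0.0156, 0.0304, 0.35 and -0.274, so the replicate number does not pair them. With the replicate block 2 markers were called, 4324 rows reached 2-fold, and the gain of Gzmb on Xcl1 was 0.84 with an adjusted p of 0.0706. Without any 1 PBS sample the gains on Klre1 and Xcl1, both near background, had an adjusted p of 0.0653 by the exact test. Without any 1 sample the gains of Gzmb lay between 1.23 and 1.59 on Klre1, 0.50 and 1.12 on Nkg7 and 0.71 and 0.99 on Xcl1.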
